A study of Strongylocentrotus intermedius with 6 samples.

Results

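Ferritin, melanotransferrin (MELTF) and the major yolk protein are the iron-storing and iron-binding proteins of the transferrin and ferritin families named in the annotation of the sea urchin Strongylocentrotus intermedius. Their genes were chosen by description, as coding models described as ferritin, transferrin or major yolk protein and not as a receptor. The pattern matched 6 of 30559 gene models. In 2 of these, Pdk2 and PDP1, it matched only the word "transferring" in the name of an enzyme, and they were set aside. The 4 members were 2 genes annotated as soma ferritin (ZJQ012741 and ZJQ012737), MELTF (ZJQ011346) and the major yolk protein gene (ZJQ009650), and all 4 passed the filter on low counts. RNA came from coelomocytes, free cells of the body cavity with immune functions, taken at zeitgeber times ZT0 and ZT12, which by convention count hours from lights-on, with 3 libraries per time. All libraries carried the treatment label LD, by convention alternating light and dark. The genotype, age and number of animals per library are not given in the labels, so replicate spread may be partly technical.

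Ferritin forms a hollow protein shell that oxidises iron and stores it in a safe form, and the cell can release that iron by degrading ferritin. Transferrins bind ferric iron outside the cell, and melanotransferrin is, in mammals, a member of this family that is anchored to the cell surface. The major yolk protein of sea urchins is also a transferrin family protein. It is stored in the gonads of both sexes and in eggs and is found in the coelomic fluid. The tissues that make it include the digestive tract and gonad. Withholding iron is a general defence of animals against microbes, and coelomocyte ferritin has been studied as an immune-responsive protein in other echinoderms.

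Total counts were 20229918 to 24368884 per library. The rank correlation between libraries, taken across genes, ranged from 0.905 to 0.926 among libraries of one time and from 0.893 to 0.916 across times, and no pair of libraries held identical values. Coelomocyte markers were abundant as a sum, at 15425 to 32356 CPM (the usual scaling of counts by library size, here with TMM adjustment) over a list of 74 genes. Of the 74, 44 passed the filter on low counts and 5 were at 0 in every library. Of 13 germ cell or gonad markers 1 was at 0 in every library, and the list summed to 153 to 215 CPM, chiefly from PIWIL1, Piwil2 and DDX4. The sperm gene bindin (ZJQ006041) had 110 counts in ZT12 library 3 and 0 or 1 in the others. The digestive list of 76 genes, 4 of them at 0 in every library, summed to 5303 to 7915 CPM, the pigment cell list of 52 genes to 1705 to 2664 CPM and the muscle list of 9 genes to 68.7 to 156 CPM. In such bulk RNA, fewer cells of a type and less RNA per cell cannot be told apart.

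The 4 genes spanned more than 3 orders of magnitude in level per transcript length, and their order was the same in every library. In FPKM (fragments scaled by gene length and library total), the abundant ferritin gene ZJQ012741 had 6626, 6278 and 6098 in ZT12 libraries 1 to 3 in turn, against 7662, 6088 and 5492 in ZT0 libraries 1 to 3. It was the gene with the second highest mean FPKM of all 30559 models, at 6374. MELTF had 442, 501 and 363 FPKM at ZT12 against 754, 676 and 566 FPKM at ZT0, and ranked 127 by mean FPKM. The major yolk protein gene had 104, 52.3 and 24.3 FPKM at ZT12 against 5.56, 75.7 and 32.2 FPKM at ZT0, and ranked 993. The minor ferritin gene ZJQ012737 had 2.56, 1.85 and 2.63 FPKM at ZT12 against 1.60, 1.91 and 1.31 FPKM at ZT0. No library brought neighbours in this order into overlap, since the lowest value of each gene lay above the highest of the next. The lengths behind these FPKM values were 1231 bases for ZJQ012741, 5603 for MELTF, 4927 for the major yolk protein gene and 4893 for ZJQ012737.

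**Figure D1:**
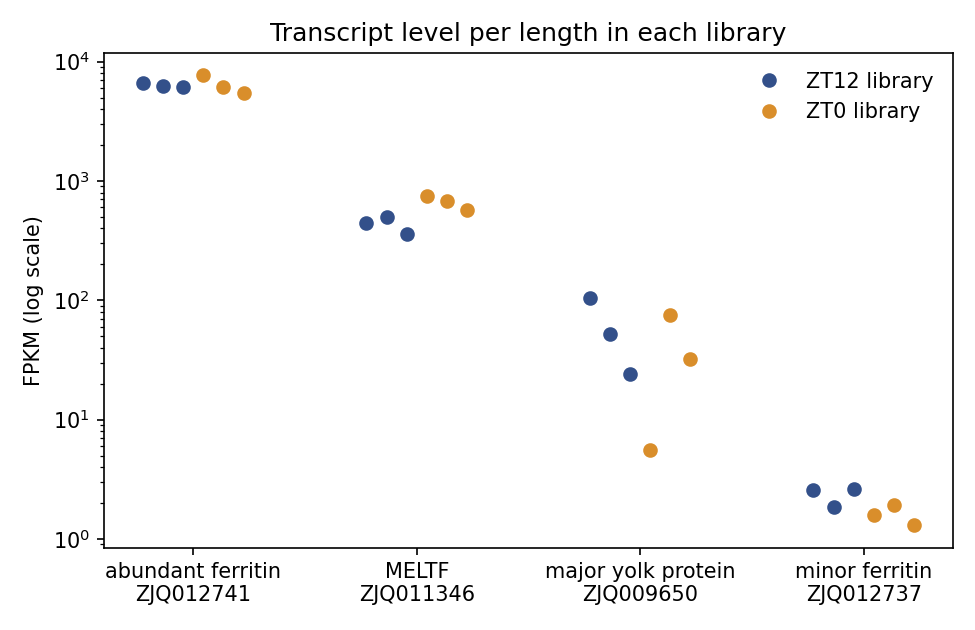
FPKM on a log axis of the 4 genes, 1 point per library, ZT12 in blue and ZT0 in orange. The genes separate fully, from ferritin ZJQ012741 at 5492 to 7662 down to ferritin ZJQ012737 at 1.31 to 2.63, while the major yolk protein gene spreads from 5.56 to 104.

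Together the 4 genes took 0.967% to 1.37% of all counts of a library, almost all of it from ferritin ZJQ012741 (0.676% to 0.943%) and MELTF (0.203% to 0.422%). The major yolk protein gene took 0.00274% to 0.0512%. The 2 ferritin genes differed by 2315-fold to 4794-fold in FPKM within a library. ZJQ012741 therefore carried nearly all of the ferritin signal, and the sum of both genes had a log2 fold change of -0.14, as did ZJQ012741 alone. Whether the ferritin copies share reads was not tested, and the value of ZJQ012737 is uncertain for that reason. ZJQ012741, but not ZJQ012737, carries the pathway terms ferroptosis (iron-dependent cell death), necroptosis and mineral absorption in the deposited annotation.

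No member passed edgeR's quasi-likelihood test between ZT12 and ZT0, with Benjamini-Hochberg adjustment over the 18456 genes tested. Over all genes 24 were called, or 0.13%, so 0 of 4 is no result about these genes. At an unadjusted p under 0.05 stood 1 of the 4, MELTF, against 7.31% of all genes.

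MELTF transcripts were lower in all 3 ZT12 libraries than in any ZT0 library. They had 2468, 2698 and 1889 CPM in ZT12 libraries 1 to 3 in turn, against 4607, 3637 and 3454 CPM in ZT0 libraries 1 to 3. The highest ZT12 library thus lay below the lowest ZT0 library, and the FPKM values above separate in the same way. Of all genes tested 6.33% lay wholly lower at ZT12 in this sense, so such a separation is common here. The means were 2352 ± 417 CPM at ZT12 against 3899 ± 620 CPM at ZT0 (SD, n = 3). The fitted level was 1.66-fold lower at ZT12, with a 95% interval of 1.14-fold to 2.42-fold (a log2 fold change of -0.73, SE 0.23). The unadjusted p was 0.0149 and edgeR's adjusted p was 0.533, so the difference did not pass across genes. The unadjusted p was 0.053 without ZT12 library 3 and 0.0489 without ZT0 library 1. The skeleton-forming cell markers also lay lower at ZT12, where the list of 18 genes summed to 94.9 to 185 CPM against 416 to 843 CPM at ZT0. Of its 11 tested members 8 had log2 fold changes below 0 and 3 above, and 8 lay wholly lower and 1 wholly higher at ZT12. Of the 11, 6 were called lower, against 0.114% of all genes, and 1 of the 18 was at 0 in every library. All 6 calls were lost by limma-voom and without ZT12 library 1 or 3, and 3 to 7 were made under the other alternatives. The part of those cells in the MELTF difference was not tested.

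Ferritin ZJQ012741 showed no such separation. It had 8133, 7427 and 6972 CPM in ZT12 libraries 1 to 3 in turn, against 10291, 7196 and 7362 CPM in ZT0 libraries 1 to 3. ZT0 library 1 stood above the other 5, which lay between 6972 and 8133 CPM, and the times overlapped. The means were 7510 ± 585 CPM at ZT12 against 8283 ± 1741 CPM at ZT0 (SD, n = 3). The log2 fold change was -0.14 (SE 0.25, edgeR adjusted p = 0.93), with a 95% interval from 1.64-fold lower to 1.35-fold higher at ZT12. Without ZT0 library 1 the sign turned, to 0.04.

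The minor ferritin gene ZJQ012737 had 12.5, 8.69 and 11.97 CPM in ZT12 libraries 1 to 3 in turn, against 8.53, 8.97 and 6.96 CPM in ZT0 libraries 1 to 3. ZT12 libraries 1 and 3 were the highest, and ZT12 library 2 lay among the ZT0 libraries. The log2 fold change was 0.44 (SE 0.30, edgeR adjusted p = 0.805), with a 95% interval from 1.19-fold lower to 2.18-fold higher at ZT12. Its counts were 140 to 305 per library.

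**Figure D2:**
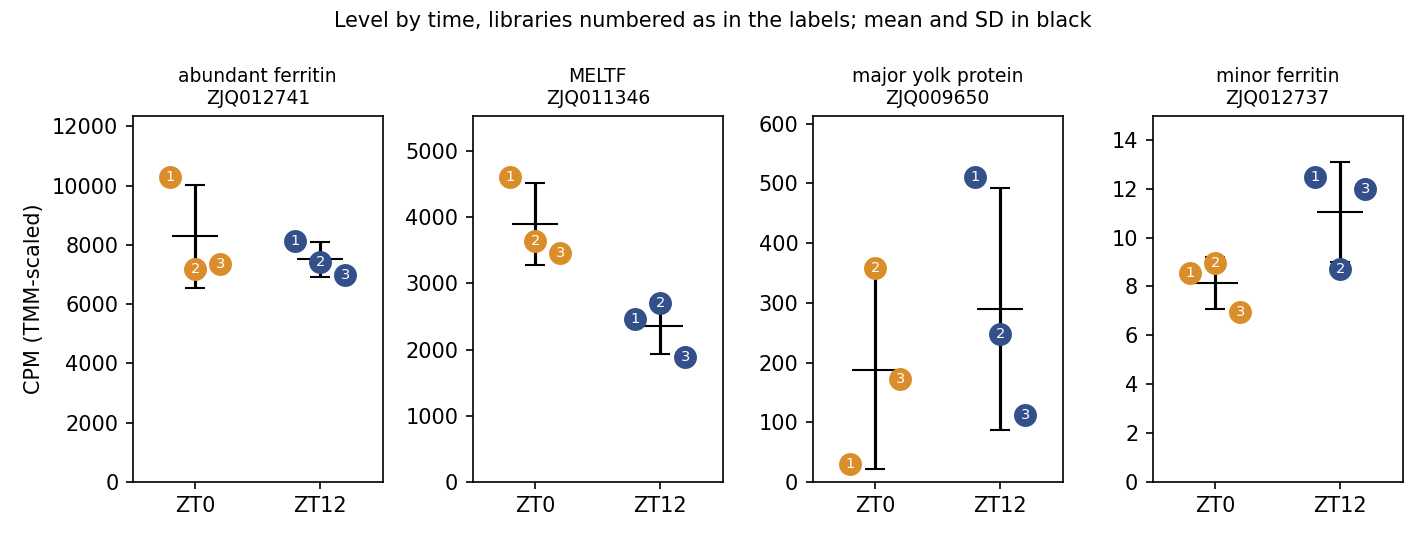
CPM of the 4 genes at ZT0 and ZT12, on linear axes from 0, with points numbered by library and the mean and SD (n = 3) in black. The times separate for MELTF, at 1889 to 2698 CPM at ZT12 against 3454 to 4607 CPM at ZT0, and overlap for the other 3 genes.

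The major yolk protein gene varied widely between libraries of the same time. It had 511, 248 and 111 CPM in ZT12 libraries 1 to 3 in turn, against 29.9, 358 and 173 CPM in ZT0 libraries 1 to 3. ZT12 library 1 was the highest and ZT0 library 1 the lowest, a 17.1-fold range over the 6 libraries, and the times overlapped. Within ZT0 alone the range was 11.99-fold and within ZT12 it was 4.59-fold. The means were 290.0 ± 203 CPM at ZT12 against 187 ± 165 CPM at ZT0 (SD, n = 3). The log2 fold change was 0.63 (SE 0.81, edgeR adjusted p = 0.911), with a 95% interval from 2.39-fold lower to 5.74-fold higher at ZT12. Single libraries decided its size and sign: it was -0.05 without ZT12 library 1, 0.13 without ZT0 library 1, 1.02 without ZT12 library 3 and 1.52 without ZT0 library 2.

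For the major yolk protein gene the coefficient of variation within a time (CV, SD over mean, pooled over both times) was 79.6%, above that of 98.9% of the 1690 genes with a mean of at least 100 CPM. The median CV of those genes was 18.9%. The 592 counts in its lowest library give a Poisson CV of 4.11% from counting alone. The other abundant members lay below the median of those genes. Ferritin ZJQ012741 had a CV of 15.9%, above 36.5% of those genes, and MELTF one of 16.8%, above 40.4%. ZJQ012737, at 16.03%, lay above 13.4% of the 5397 genes between 5 and 20 CPM, whose median CV was 30.7%.

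**Figure D3:**
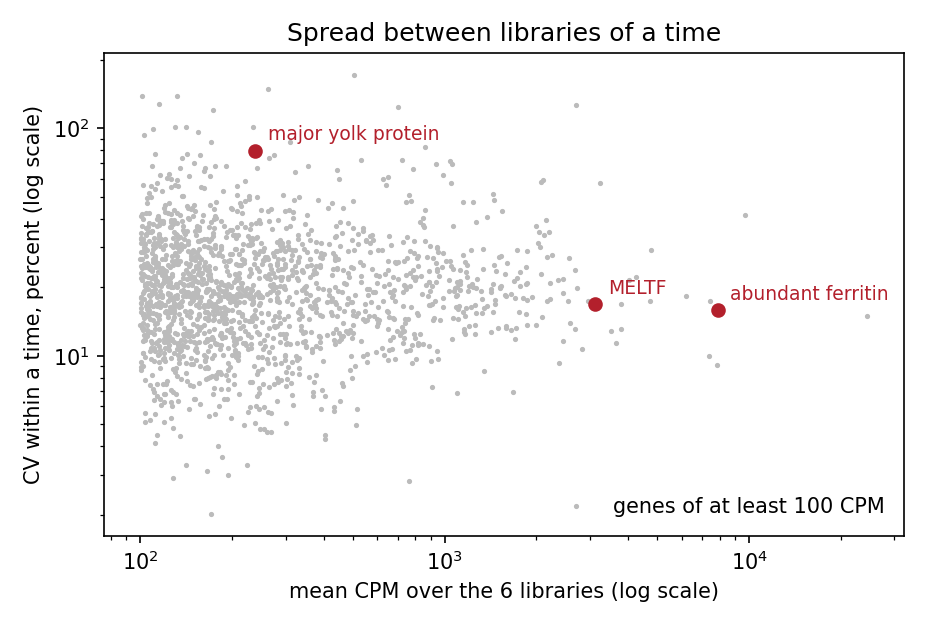
CV within a time against mean CPM, both on log axes, for the 1690 genes of at least 100 CPM (grey) with 3 members in red. The major yolk protein gene, at a CV of 79.6%, lies near the top, whereas MELTF (16.8%) and ferritin ZJQ012741 (15.9%) lie within the body of the genes.

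Tissues that make the major yolk protein include the digestive tract and the gonad, and markers of both were read in the same libraries. The median of 37 tested gut genes lay 1.01, -0.12 and 0.47 log2 units from its genes' means in ZT12 libraries 1 to 3 in turn, against -0.73, -0.48 and 0.08 in ZT0 libraries 1 to 3. The yolk protein gene lay at 1.57, 0.52 and -0.63 in ZT12 libraries 1 to 3 in turn, against -2.52, 1.06 and 0.00 in ZT0 libraries 1 to 3. By this median, gut list and yolk gene were both highest in ZT12 library 1 and both lowest in ZT0 library 1, while in ZT12 libraries 2 and 3 and ZT0 library 2 they stood on opposite sides of their means. Between times the 37 gut genes leaned higher at ZT12, with a median log2 fold change of 0.73, 28 above and 9 below 0. These genes share the same 6 libraries and are not replicates of a time. The list median had a within-time SD of 0.498 log2 units, and ZT12 library 2 (-0.12) lay below ZT0 library 3 (0.08). After adjustment edgeR called 0 of the 37, where 0.13% of all genes were called, so 0 of 37 is no result about the list. Before adjustment, 13 were higher and 1 lower with an edgeR p below 0.05, or 37.8%, where all genes gave 7.31%. At ZT12, 6 lay wholly higher and 0 wholly lower, or 16.2% and 0%, where all genes gave 5.84% and 6.33%. The summed level of all 76 gut genes had another order, at 5524, 5598 and 6375 CPM at ZT12 against 6563, 5303 and 7915 CPM at ZT0. By the sum, ZT12 library 1 was the second lowest and ZT0 library 1 the second highest. Alpha-amylase (ZJQ004967, a starch-digesting enzyme) was chosen as an example after its values were seen. It had 58.7, 2.56 and 19.97 CPM at ZT12 against 0, 0 and 5.17 CPM at ZT0. It was highest in ZT12 library 1, as was the yolk gene, and at 0 in ZT0 library 1, where the yolk gene was lowest. It was also at 0 in ZT0 library 2, where the gut list as a whole summed to 5303 CPM and the yolk gene had 358 CPM.

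The 6 tested germ cell or gonad genes had medians between -0.29 and 0.16 log2 units in all libraries. The fragment annotated as vitellogenin (ZJQ004803), a yolk protein of other animals, had 29.7 CPM in ZT0 library 3 and 0.57 to 2.21 CPM in the other 5. This fragment and bindin, each high in a single library, were chosen as examples after their values were seen. The apolipophorin gene (ZJQ004894), for a lipid carrier of the body fluid related to vitellogenin, had 3051, 2675 and 3861 CPM at ZT12 against 3699, 4952 and 4559 CPM at ZT0 (a log2 fold change of -0.46, SE 0.24, edgeR adjusted p = 0.727). Its 1.85-fold range over libraries, against 17.1-fold for the yolk protein gene, is given as a description. The parts of gut cells, gonad cells and the coelomocytes themselves in the yolk protein values were not tested.

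**Figure D4:**
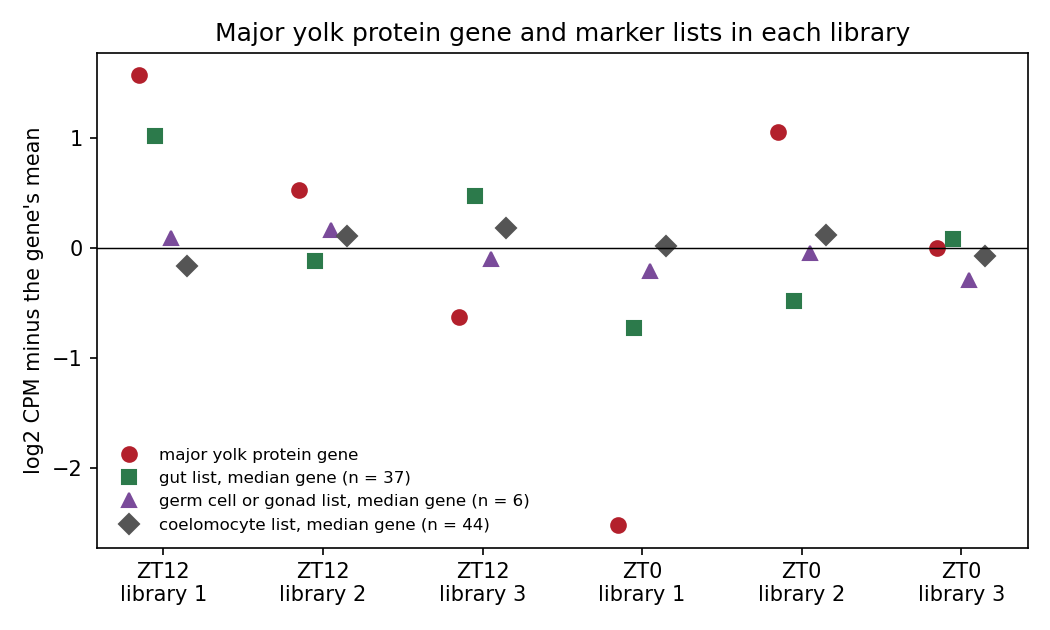
Deviation of log2 CPM from each gene's mean in the 6 libraries, for the major yolk protein gene (red) and the median gene of the gut (n = 37), germ cell or gonad (n = 6) and coelomocyte (n = 44) lists. The yolk gene runs from -2.52 in ZT0 library 1 to 1.57 in ZT12 library 1, the gut list from -0.73 to 1.01 in the same libraries, and the gonad list stays between -0.29 and 0.16.

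The balance between members can be read within a library, where it does not depend on scaling. Ferritin ZJQ012741 exceeded MELTF in FPKM by 14.998-, 12.5- and 16.8-fold in ZT12 libraries 1 to 3 in turn, against 10.2-, 9.01- and 9.70-fold in ZT0 libraries 1 to 3. Every ZT12 library thus had a higher ratio than every ZT0 library, at 14.8 ± 2.14 against 9.63 ± 0.585 (SD, n = 3). MELTF alone already separated the times, so this ratio is not an independent result. The two-sided exact permutation test on log2 ratios gave p = 0.1, the smallest that 3 against 3 libraries allow, and 0.4 adjusted over the 4 ratios computed. MELTF exceeded the yolk protein gene by 4.25- to 14.9-fold at ZT12 and by 8.92- to 136-fold at ZT0, with overlapping times (exact permutation p = 0.3, adjusted p = 0.4). The other ratios were ferritin ZJQ012741 to the yolk protein gene (p = 0.6, adjusted 0.6, exact permutation test) and ferritin ZJQ012741 to ZJQ012737 (p = 0.2, adjusted 0.4, exact permutation test).

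Genes whose profile over the 6 libraries was most like that of a member were sought among 6868 genes with a name and at least 10 CPM. For MELTF these were AGPAT3 (ZJQ023817, a phospholipid acyltransferase), LTN1 (ZJQ023325, a ubiquitin ligase of stalled ribosomes) and Arsa (ZJQ002733, a lysosomal arylsulfatase). Their Pearson r of log2 CPM was 0.991, 0.990 and 0.986. Their own differences were smaller, with log2 fold changes of -0.34, -0.26 and -0.23. For the yolk protein gene they were Tmem230 (ZJQ007659, r = 0.987), a gene for a cytoskeletal actin (ZJQ007363, r = 0.978) and Mfsd12 (ZJQ013824, r = 0.973). Tmem230 and the actin gene followed its order of libraries over a narrower range, 23.0 to 42.5 CPM for Tmem230 and 14.4 to 38.5 CPM for the actin gene.

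For ferritin ZJQ012741 they were AAMP (ZJQ019206, r = 0.993), the ribosomal protein gene RPLP1 (ZJQ001849, r = 0.988) and MIPEP (ZJQ013903, r = 0.97496). Without the 2 libraries farthest from the median, ZT0 library 1 and ZT12 library 1, the r of RPLP1 was 0.559 and that of MIPEP -0.20, so these 2 rest on those libraries. For the other 7 genes named, r without the 2 farthest libraries was 0.891 to 0.987. With 6 libraries high values arise easily, and 57, 41 and 52 of the 6868 genes reached 0.9 with MELTF, the yolk protein gene and ferritin ZJQ012741. These correlations are a description over 6 libraries that share 2 times, and no test was made.

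The other genes of iron handling lay on both sides of 0. A list of 66 genes for iron transport, iron sensing, iron-sulphur clusters and haem held 56 tested genes. Of these edgeR called 0, where 0.13% of all genes were called, so 0 of 56 is no result about the list. With an unadjusted p under 0.05 there were 4 genes higher and 4 lower at ZT12, or 14.3% against 7.31% of all genes. Of the 56, 25 lay above and 31 below 0, with a median log2 fold change of -0.02 against 0.00 over all genes tested. Among the 56, 7 lay wholly higher and 5 wholly lower at ZT12, or 12.5% and 8.93%, against 5.84% and 6.33% of all genes. DESeq2 called 2 of the list, both lower at ZT12. Over all genes it called 264 of 19855, 133 higher and 131 lower.

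Of the genes that sense iron or act on ferritin protein, none was called, where 0.13% of all genes were. Aco1 (ZJQ003701), whose product in mammals doubles as the iron regulatory protein that represses ferritin translation, had 230.2 ± 12.7 CPM at ZT12 against 232 ± 37.5 CPM at ZT0 (a log2 fold change of -0.01, SE 0.18, edgeR adjusted p = 0.995). NCOA4 (ZJQ015405), the receptor that delivers ferritin for degradation, had 149.96 ± 39.7 and 149 ± 5.76 CPM (0.01, SE 0.22, adjusted p = 0.995). The iron-sensing ubiquitin ligase gene fbxl5 (ZJQ003792) had 93.2 ± 2.61 and 104 ± 8.66 CPM (-0.16, adjusted p = 0.887). All of these SDs are over 3 libraries, and in each gene the times overlapped.

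Among transporters, the iron exporter gene slc40a1 (ferroportin, ZJQ006347) had 3.07, 5.61 and 6.17 CPM at ZT12 against 3.33, 2.26 and 4.47 CPM at ZT0 (a log2 fold change of 0.56, SE 0.46, edgeR adjusted p = 0.84). Of 2 divalent metal transporter genes annotated Slc11a2, ZJQ005965 had 149, 83.7 and 92.1 CPM at ZT12 against 135, 131 and 160 CPM at ZT0 (-0.39, adjusted p = 0.79). ZJQ002606 had 5.32 to 16.4 CPM (-0.19, adjusted p = 0.945). In slc39a14 (ZJQ022161), a zinc and iron importer, the ZT12 libraries at 2.24 to 4.38 CPM lay above the ZT0 libraries at 1.495 to 2.14 CPM (0.94, adjusted p = 0.722). No gene model used here matched the name patterns for a transferrin receptor, a haem oxygenase or a poly(rC)-binding iron chaperone, and these are not analysed here.

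The hephaestin family, copper enzymes that oxidise iron so that transferrins can bind it, held 5 tested genes. The hephaestin-like gene ZJQ011252 had 1220, 836 and 1118 CPM at ZT12 against 1395, 1334 and 1323 CPM at ZT0, so that every ZT12 library lay below every ZT0 library (a log2 fold change of -0.35, SE 0.20, edgeR adjusted p = 0.752). HEPH (ZJQ002509) separated the other way, at 27.7, 28.3 and 32.4 CPM at ZT12 against 22.5, 23.9 and 22.7 CPM at ZT0 (0.35, SE 0.20, adjusted p = 0.745). ZJQ021523 had 471, 88.7 and 257 CPM at ZT12 against 102, 202 and 127 CPM at ZT0, with overlapping times (0.92, SE 0.54, adjusted p = 0.759). All 5 had log2 fold changes between -0.35 and 0.92.

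Of 17 tested iron-sulphur cluster genes, 2 lay lower and 1 higher at ZT12 at an unadjusted p under 0.05. The NFU1 homolog (ZJQ014964), a scaffold that passes clusters to mitochondrial enzymes, had 11.8, 17.0 and 20.3 CPM at ZT12 against 40.04, 36.4 and 37.9 CPM at ZT0. The times did not overlap, and the log2 fold change was -1.22 (SE 0.25). Its adjusted p was 0.224 by edgeR and 0.00637 by DESeq2, so its call depends on the tool. NFS1 (ZJQ012835), the cysteine desulfurase that supplies the sulphur, had 27.5, 26.8 and 25.9 CPM at ZT12 against 41.9, 46.9 and 36.8 CPM at ZT0 (-0.65, SE 0.20, edgeR adjusted p = 0.496). A homolog of NUBP2 (ZJQ020519), of the cytosolic cluster assembly, had 2.38 to 3.68 CPM at ZT12 against 0.555 to 1.51 CPM at ZT0 (1.58, adjusted p = 0.565). The cluster scaffold gene Iscu (ZJQ023952) had 182 ± 7.31 and 190.0 ± 5.89 CPM (SD, n = 3; -0.06, adjusted p = 0.956).

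The remaining 5 genes at an unadjusted p under 0.05 had means under 10 CPM at both times. One of 8 genes annotated HEBP2, a haem-binding protein family, had 0 counts in all ZT12 libraries and 19, 31 and 38 counts in ZT0 libraries 1, 2 and 3 (ZJQ009967). Taking 3 counts over the ZT12 group as the floor, it was at least 31.2-fold lower at ZT12 (adjusted p = 0.263 by edgeR and 0.000606 by DESeq2). A further HEBP2 gene, ZJQ009876, had 2.96 ± 0.572 CPM at ZT12 against 7.55 ± 3.01 CPM at ZT0 (edgeR adjusted p = 0.542). A ferric-chelate reductase gene, frrs1 (ZJQ005498), had 1.002 ± 0.42 and 0.218 ± 0.104 CPM (adjusted p = 0.411). The neogenin genes ZJQ002681 and ZJQ004706, for a receptor that in mammals acts in the iron hormone pathway among other roles, had log2 fold changes of 1.26 and 1.37 (edgeR adjusted p = 0.592 and 0.48). All SDs are over 3 libraries. HEBP2 copies could share reads, which was not tested.

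The 8 haem synthesis genes tested had log2 fold changes between -0.22 and 0.55, 6 of them above 0, and none reached an unadjusted p of 0.05. The enzyme of the first step, alas2 (ZJQ004621), had 219 ± 28.8 CPM at ZT12 against 178 ± 44.4 CPM at ZT0 (SD, n = 3, with a log2 fold change of 0.30, SE 0.22, edgeR adjusted p = 0.818).

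**Figure D5:**
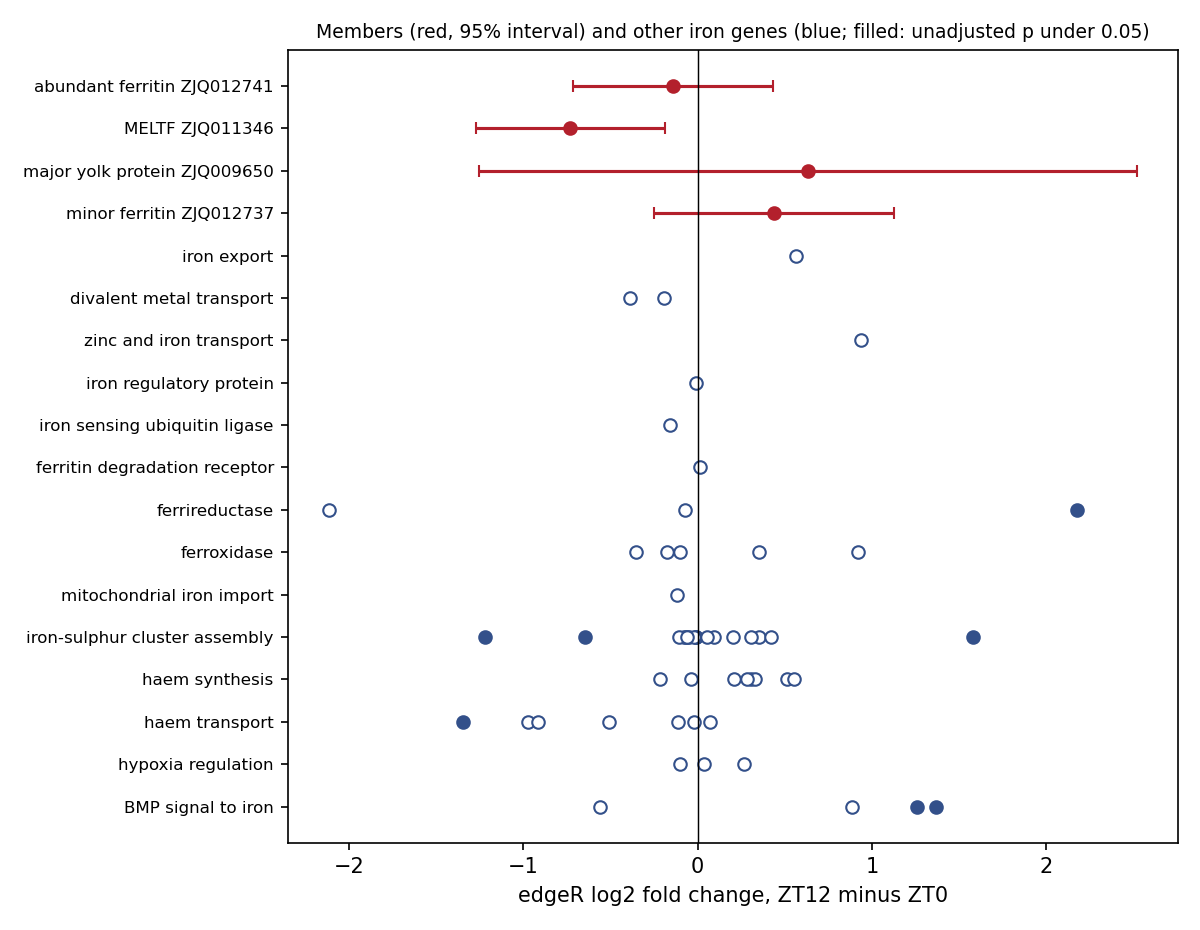
Difference between times (ZT12 minus ZT0, log2 scale, edgeR) for the 4 members in red with 95% intervals, and of the other tested iron genes in blue by role, filled where the unadjusted p was under 0.05. Intervals of 3 members include 0 and that of MELTF ends at -0.19, the blue points lie on both sides of 0, and HEBP2 gene ZJQ009967 (0 counts at ZT12) is not drawn.

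Genes that share the ferroptosis term with ferritin ZJQ012741 were also without calls. With 0.13% of all genes called, this is no result about them. Of 50 such genes 37 were tested, 21 lay above and 16 below 0, the median log2 fold change was 0.09 and 0 had an unadjusted p under 0.05, against 7.31% of all genes. Of the 37, 4 lay wholly higher at ZT12 and 0 wholly lower, or 10.8% and 0%, against 5.84% and 6.33% of all genes. The lipid-loading enzyme ACSL4 (ZJQ013859) had 66.9 ± 5.66 CPM at ZT12 against 62.8 ± 11.2 CPM at ZT0. GPX1 (ZJQ004854), a glutathione peroxidase, had 40.1, 47.3 and 45.9 CPM at ZT12 against 93.9, 78.6 and 39.9 CPM at ZT0, where ZT0 library 3 lay below the ZT12 libraries (a log2 fold change of -0.67, edgeR adjusted p = 0.703).

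The annotation gives 6 genes as Scara5, which in mammals is a cell surface receptor for ferritin. They were chosen after their values were seen. The most variable, ZJQ001626, had 65.2, 53.6 and 26.9 CPM in ZT12 libraries 1 to 3 in turn, against 29.0, 1.92 and 17.2 CPM in ZT0 libraries 1 to 3. ZT0 library 2 was far below the rest and ZT0 library 1 lay above ZT12 library 3, so the times overlapped (a log2 fold change of 1.61, SE 0.75, edgeR adjusted p = 0.703). The others that reached 10 CPM, ZJQ017137 and ZJQ021029, had log2 fold changes of -0.05 and 0.00 (edgeR adjusted p = 0.984 and 0.999), and the remaining 3 had under 1 CPM on average at each time.

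The 2 enzyme genes set aside by name were also tested. Pdk2 (ZJQ004306) had 34.5, 27.3 and 34.8 CPM at ZT12 against 18.8, 20.03 and 29.9 CPM at ZT0, with overlapping times (a log2 fold change of 0.49, SE 0.26, edgeR adjusted p = 0.733). PDP1 (ZJQ016628) had 9.15 to 11.97 CPM over the 6 libraries (0.00, edgeR adjusted p = 0.999).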

How the data were processed

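Coelomocyte RNA was extracted with TRIzol and made into libraries with a VAHTS kit, per the labels' protocols. Processing used fastp, HISAT2 and HTSeq, per the submitters' processing notes, and their versions, the genome build and the strand setting were not given in the labels or headers. The authors deposited whole-number counts per gene and FPKM per library. FPKM equalled counts over library total and one length per gene within 0.1% for 100% of 97881 values of at least 20 counts. Without a known strand setting, overlapping genes on opposite strands cannot be told apart.

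The test on counts was that of edgeR 4.0.16, run in R 4.3.3 (filterByExpr with minimum count 10 and total 15, TMM, glmQLFit with legacy = FALSE, Benjamini-Hochberg over 18456 genes, threshold 0.05). The standard error is the log2 fold change over the square root of F. Alternatives used DESeq2 1.42.0, limma 3.58.1, other scalings, no filter, FPKM with pseudocounts of 1 and 0.1, and left-out libraries. Log2 CPM used a prior count of 2. The steps were tested on simulated data, where the share of false calls exceeded the threshold of 0.05 for edgeR, DESeq2 and limma-voom, and most so for DESeq2.

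Members and lists were chosen with earlier results of these data known. All members, iron genes of central roles or with an unadjusted p under 0.05, and the 3 genes most correlated with each abundant member were named. Further examples were chosen after their values were seen: fbxl5, slc39a14, the hephaestin genes, Iscu, alas2, ACSL4, GPX1, amylase, bindin and the vitellogenin and apolipophorin genes. Patterns for bindin and calponin were narrowed after names were seen, and the ferroptosis and Scara5 lists were added then. No sequence was used here.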

Additional observations from a re-analysis of the deposited data

How the results depend on the processing

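No member was called under any of 15 alternatives. MELTF stayed lower at ZT12 in all 15, with log2 fold changes of -0.84 to -0.59 and adjusted p of 0.16 (DESeq2) to 0.784, and ZJQ012737 stayed higher (0.34 to 0.58). Without single libraries the yolk protein gene ranged from -0.050 to 1.52, ferritin ZJQ012741 from -0.23 to 0.045 and the ferritin sum from -0.23 to 0.0452. The sign turned without ZT12 library 1 for the yolk protein gene (-0.050) and without ZT0 library 1 for ferritin (0.045) and the sum (0.0452). The cause was not tested beyond the samples left out. The iron list had 0 calls by edgeR, 2 by DESeq2 and 1 by limma-trend on log2(FPKM + 0.1), which called 31 genes in all. The median of the iron list minus that of all genes was -0.02, and -0.0058 to 0.070 without single libraries. Plain library sizes moved the median of all genes by 0.12, where MELTF was at -0.61 and ferritin at -0.02. Over all genes 24 were called by edgeR, 264 by DESeq2, 10 with legacy = TRUE, 0 by limma-voom (1078 at an unadjusted p under 0.05), and 0 to 24 without single libraries, 0 without ZT12 library 1 or 3. With the replicate block 13 were called and MELTF was at -0.73. Same-numbered libraries did not deviate together (correlations -0.05, 0.02 and 0.00), nor did each correlate best with its own number. Depth did not limit the 3 abundant members; counting error and floors cover counting only.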
